A study of Mus musculus with 14 samples.

Results

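Libraries of 2 mouse embryonic stem cell (ESC) lines that lack Zfp281, taken at the third passage of conversion to extraembryonic endoderm, were compared with 2 established extraembryonic endoderm (XEN) stem cell lines, to describe how complete the conversion was and which genes still differed. These 4 libraries, of 14 in the series, were chosen by their labels: the Zfp281KO lines 2.6Null and 3.34Null at stage cXENp3, and the WT lines XEN5 and XENB1. All 4 come from 129S1 backgrounds (129S1/SVImJ, or 129S1 for XENB1), and the cell line field of 2.6Null reads 2.26-/-, whereas its title is used here. The null cells had been kept 48 hours with 0.01 µM retinoic acid and 10 ng/mL activin A (passage 1), then passed onto iMEF feeders (passage 2) and back onto gelatin in XEN medium (passage 3). The XEN lines were grown without feeders in medium conditioned by fibroblasts. The same null lines as undifferentiated ESCs and at passage 1 (cXENp1), 1 library each, give the scale, and a wild-type ESC library of line 3WT served once to choose genes. Each line gave 1 library per stage, so that 2 lines stand for a group and the p-values measure the spread between lines.

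XEN cells are stem cells of the primitive endoderm lineage, which lines the yolk sac. Transcription factors of the GATA and SOX families set up their identity, and the cells secrete basement membrane and take up proteins through endocytic receptors. ESCs can enter this state when Pou5f1, Nanog and Sox2, the core factors of pluripotency, give way to GATA factors. Zfp281 is a zinc finger transcription factor expressed in ESCs.

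Values were taken as FPKM (fragments scaled by transcript length and library size) as deposited, and a difference is given on the scale of log2(FPKM + 1), null cXENp3 minus XEN, unless stated. That scale understates changes of genes with low values. The 4 libraries held between 14972 and 16622 genes above 0, and all 4 carry the description prefix XH. The table holds no read counts, so the depth is unknown and low values come without an estimate of their precision. In bulk libraries, fewer cells of a type and less RNA per cell cannot be told apart.

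The targeted gene and both markers were examined first. Zfp281 (XLOC_000413, mm9 chromosome 1, 138521478 to 138526968) had 0.559 FPKM in 2.6Null and 3.96 FPKM in 3.34Null at cXENp3, against 12.5 FPKM in XEN5 and 10.6 FPKM in XENB1. As ESCs and at cXENp1 it was listed at 0 in 2.6Null and had 3.92 and 1.29 FPKM in 3.34Null. The null libraries lay below the XEN lines, which themselves hold less Zfp281 than the 28.5 FPKM of wild-type ESCs, and the difference of -2.17 (SE 0.80) was not called (limma adjusted p = 0.263). Gata4 (XLOC_006434, chromosome 14, 63817752 to 63864097), a founding factor of primitive endoderm, had 323 and 410 FPKM in 2.6Null and 3.34Null and 430 and 326 FPKM in XEN5 and XENB1, so that the groups overlapped. Pou5f1 (XLOC_008462, chromosome 17, 35642977 to 35647722), the pluripotency factor also called Oct4, had 47.4 and 189 FPKM in the null libraries, was listed at 0 in XEN5 and had 10.4 FPKM in XENB1. The XEN marker thus stood at the level of the XEN lines, while the ESC marker was higher in both null libraries than in either XEN line, by 4.83 (SE 1.03), which was not called (limma adjusted p = 0.0826). That difference was 3.07 without XEN5, whose exact 0 may be a failed estimate, and 6.58 without XENB1. With all 14 libraries in 7 groups Pou5f1 was called (limma adjusted p = 0.0153).

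The number of genes apart from the XEN lines was then followed through the conversion. A linear model was fitted to the 8 libraries of null ESCs, null cXENp1, null cXENp3 and XEN, with calls made at 0.05 after Benjamini-Hochberg adjustment of the p-values over 12830 genes. Between null cXENp3 and XEN, 88 genes (0.686%) passed, of which 53 (0.413%) were higher and 35 (0.273%) lower in the null cells, each of them with 1 sign throughout the 4 null-to-XEN pairs. At an unadjusted p under 0.05 there were 1958. Null ESCs differed from the same XEN libraries in 4541 genes (35.4%) and null cXENp1 in 2593 (20.2%), with the same number of libraries and the same fit. With 1 library left out these counts were 2653 to 3583 and 578 to 1510, the lowest for cXENp1 being without 3.34Null; without XEN5 it was 1005. The count at cXENp3 depended strongly on the fit. It was 551 (353 higher and 198 lower) with all 14 libraries in 7 groups, which include 87 of the 88. With only the 4 libraries compared it was 44, which include 30 of the 88. It was 33 without 2.6Null, 42 without 3.34Null, 44 without XENB1 and 33 without XEN5, and quantile normalization split 80 genes into 40 higher and 40 lower.

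The size of the differences gave a description that needs no test. The 4 pairs shared 1 sign in 6387 genes (49.8%), 3587 higher (28%) and 2800 lower (21.8%). In 401 genes (3.13%) the null and XEN libraries were at least 1 log2 unit apart in every pair, 283 higher (2.21%) and 118 lower (0.92%). For null ESCs and null cXENp1 against XEN the latter counts were 2793 (21.8%) and 1879 (14.6%). The median absolute difference over all genes was 0.71 in null ESCs, 0.52 at cXENp1 and 0.34 at cXENp3. Single libraries of 1 kind also differed. The 2 null cXENp3 libraries were at least 1 log2 unit apart in 1183 genes (9.22%) and the 2 XEN lines in 1012 (7.89%). 3.34Null was that far from XENB1 in 1495 genes (11.7%) and from XEN5 in 1714 (13.4%), and 2.6Null in 1884 (14.7%) and 2513 (19.6%). Every pair of a null library with a XEN line therefore differed in more genes than either pair of like libraries did.

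**Figure D1:**
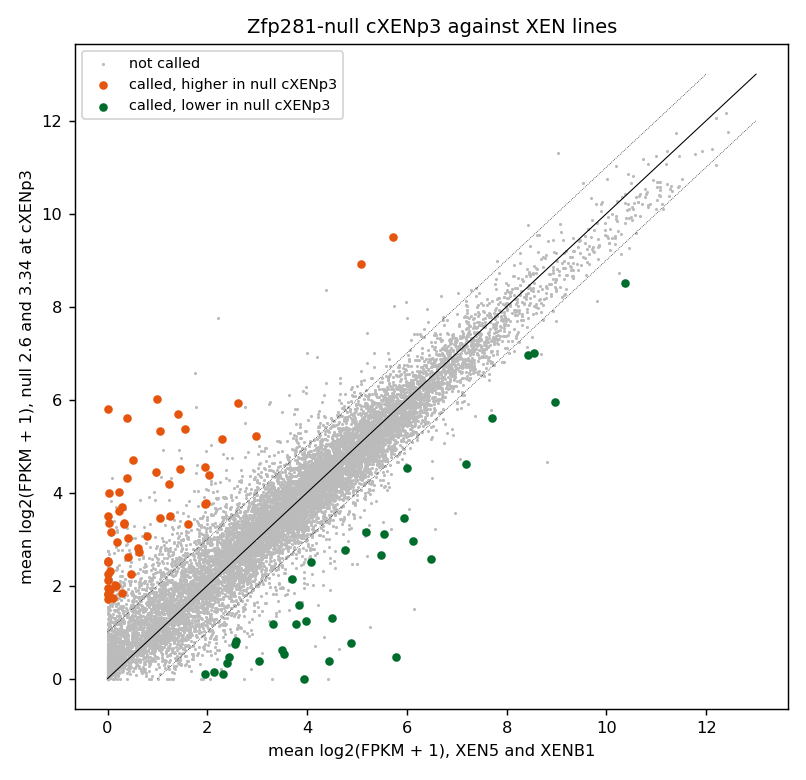
Mean log2(FPKM + 1) of the 2 null cXENp3 libraries (vertical) against that of the 2 XEN lines (horizontal), 1 point per gene for 12830 genes; the solid line marks equal levels and the dotted lines a difference of 1 log2 unit. The 53 genes called higher (orange) and the 35 called lower (green) lie off a diagonal on which most genes fall.

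Loss of the ESC programme and gain of the XEN programme were measured separately, on genes chosen by level in wild-type ESCs and XENB1. These had at least 10 FPKM and a difference of at least 3 log2 units between wild-type ESCs and XENB1. The null libraries were set against XEN5. Genes listed at 0 in both null cXENp3 libraries and in the XEN line measured against were left out. The measured libraries thus had a part in the choice. Such genes are equal in these libraries, so leaving them out can only lower the cXENp3 shares within 1 log2 unit. For ESC-high genes it can only raise the cXENp3 medians. Over 470 XEN-high genes the median distance from XEN5 went from -3.40 in 2.6Null ESCs and -3.54 in 3.34Null ESCs to 0.11 and -0.19 at cXENp3, where 62.8% and 66.8% of the genes lay within 1 log2 unit of XEN5. XENB1 itself, which chose these genes, had 69.8% within that distance. Over 256 ESC-high genes the median went from 3.02 and 3.69 to 0.63 in 2.6Null and 1.44 in 3.34Null, and 59.0% and 31.6% lay within 1 log2 unit, against 84.4% for XENB1. The medians of the XEN-high genes thus reached XEN5 in both lines, whereas those of the ESC-high genes lay above it, further in 3.34Null than in 2.6Null. With XEN5 choosing the genes, the median of the ESC-high genes in 3.34Null was 1.04 and 46.0% lay within 1 log2 unit of XENB1; with a difference of at least 2 it was 1.00, and 48.2% lay within 1 log2 unit of XEN5. These are counts over genes of single libraries and carry no test.

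**Figure D2:**
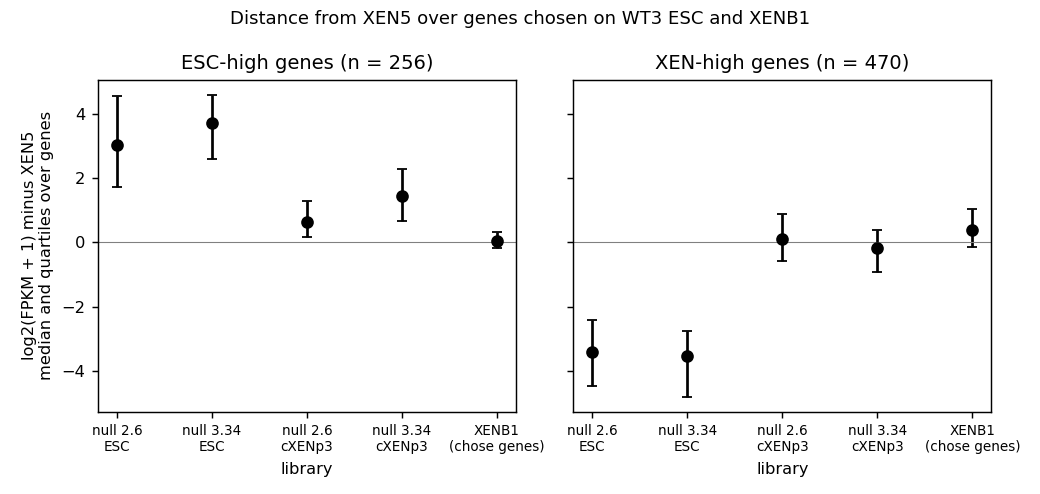
Distance from XEN5 in log2(FPKM + 1), as the median (point) and quartiles (bars) over genes, for each null library and XENB1. The genes were chosen on wild-type ESCs and XENB1, without those listed at 0 in both null cXENp3 libraries and XEN5. Over XEN-high genes the cXENp3 medians are 0.11 and -0.19, and over ESC-high genes 0.63 and 1.44.

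Most pluripotency genes had more FPKM in both null libraries than in either XEN line, but few passed the test. Of 26 genes of the list, 17 were higher than in XEN in all 4 pairs (28% of all genes), 1 was lower and 8 overlapped, with a median difference of 2.49 against 0.04 over all genes. Of these 26, 3 were called, all higher (0.413% of all genes): Tdgf1, Utf1 and Dppa4. In 3.34Null the level exceeded that in 2.6Null for 25 of the 26 genes. Relative to each line's own ESCs, the level at cXENp3 had a median of 7.19% in 2.6Null over the 24 genes with at least 10 FPKM in its ESCs, and of 25.6% in 3.34Null over 23 genes. Pou5f1 had 30.6 and 21.0 FPKM at cXENp1 in 2.6Null and 3.34Null, less than at cXENp3.

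Tdgf1 (XLOC_021988, chromosome 9, 110842112 to 110848662) encodes Cripto, the coreceptor of Nodal. It had 25.7 FPKM in 2.6Null and 87.3 FPKM in 3.34Null, was listed at 0 in XEN5 and had 0.703 FPKM in XENB1, a difference of 5.22 (SE 0.56, limma adjusted p = 0.0092). Both null libraries were above both XEN lines, at 5.61% and 10.6% of their ESC levels. At cXENp1 the same lines had 2.85 and 1.93 FPKM of Tdgf1, less than at cXENp3. Utf1 (XLOC_018482, chromosome 7, 147129755 to 147131011), a chromatin factor of ESCs, had 18.8 and 80.7 FPKM against 0.908 and 1.27 FPKM in XEN5 and XENB1 (difference 4.27, SE 0.60, limma adjusted p = 0.0228). Its level in 3.34Null was 46.4% of that in the line's ESCs, and in 2.6Null it was 7.39%. Dppa4 (XLOC_007641, chromosome 16, 48283848 to 48294405), a chromatin-binding protein of pluripotent cells, had 10.6 and 21.6 FPKM, was listed at 0 in XEN5 and had 0.374 FPKM in XENB1 (difference 3.79, SE 0.43, limma adjusted p = 0.0113).

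The core factors had large differences with a wide spread between the null lines, and none was called. Nanog had 1.64 FPKM in 2.6Null and 28.5 FPKM in 3.34Null, against 0.0533 FPKM in XEN5 and a listed 0 in XENB1 (limma adjusted p = 0.185). Sox2 had 7.54 and 45.0 FPKM against 0.0709 and 0.0549 FPKM in XEN5 and XENB1 (limma adjusted p = 0.0567). Esrrb, an orphan nuclear receptor of naive ESCs, had 0.509 and 22.8 FPKM, the latter 10.3% of its level in 3.34Null ESCs, and was at most 0.012 FPKM in the XEN lines. Nanog and Esrrb were thus near the floor of the scale in 2.6Null and well above it in 3.34Null.

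The list also held genes that the XEN lines express. Klf4, a Krüppel-like factor, had 146 and 123 FPKM in 2.6Null and 3.34Null and 64.5 and 66.7 FPKM in XEN5 and XENB1, so that both kinds of cell had it. Lin28a, an RNA-binding protein that blocks let-7 maturation, was the gene of the list that was lower in the null cells in all 4 pairs, with 4.14 and 15.7 FPKM against 96.1 and 91.6 FPKM (difference -3.36, SE 0.69, limma adjusted p = 0.0775, not called). Klf5, Tbx3, Sall4, L1td1, Fbxo15, Tet1, Klf2 and Dppa3 overlapped between the groups.

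**Figure D3:**
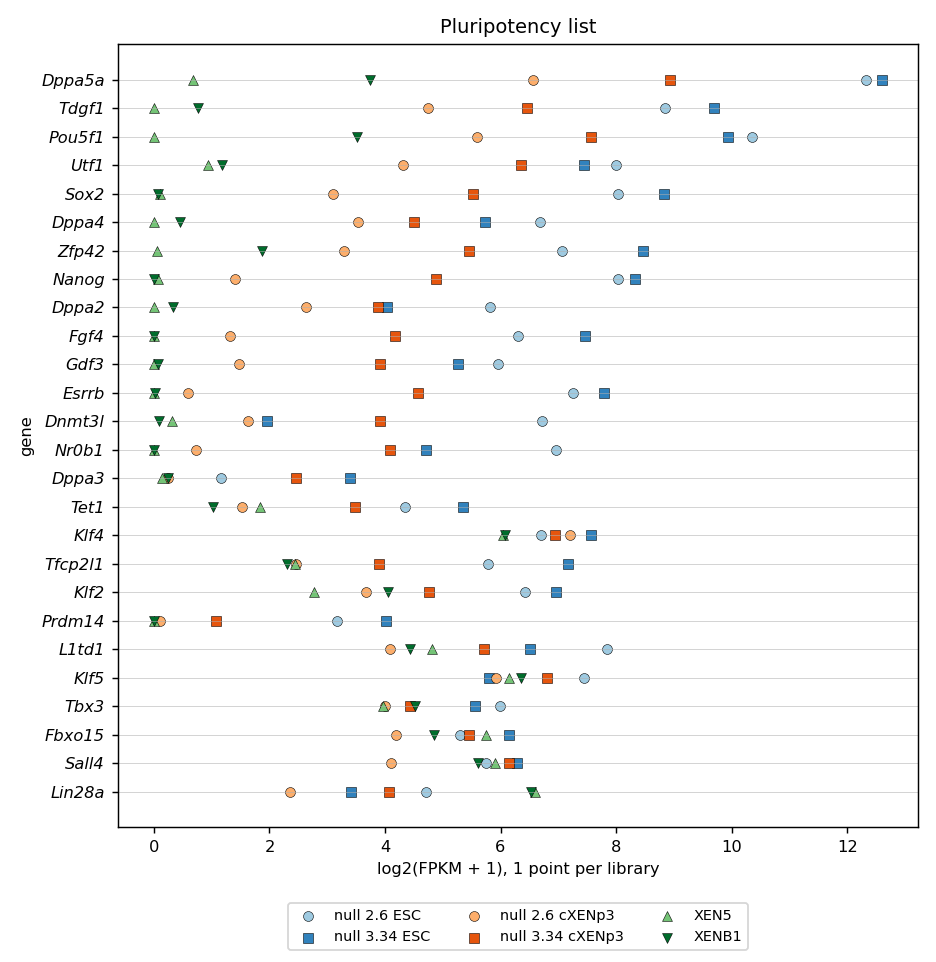
Level of each gene of the pluripotency list in log2(FPKM + 1), 1 point per library, ordered by the difference between null cXENp3 and XEN. Null cXENp3 points (orange) lie between ESC (blue) and XEN (green) points for most genes, with 3.34Null (squares) to the right of 2.6Null (circles) in 25 of 26.

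Genes of the primed epiblast, the state that follows naive pluripotency, were read in the same way. Of 11 tested, 8 were higher than in XEN in all 4 pairs (28% of all genes) and 3 overlapped, with a median difference of 1.59. One of them was called (0.413% of all genes were called higher), Otx2 (XLOC_006284, chromosome 14, 49277859 to 49282547), a homeobox factor of epiblast and head, which had 3.64 and 3.84 FPKM in 2.6Null and 3.34Null and was listed at 0 in both XEN lines. At cXENp1 Otx2 had 0.133 FPKM in 2.6Null and was listed at 0 in 3.34Null. Pou3f1, a POU factor of the primed epiblast, had 9.12 and 6.11 FPKM against 0.0183 and 0.0876 FPKM and was not called (limma adjusted p = 0.0577). Of 7 mesendoderm genes, 1 passed the filter: Eomes, with 2.45 and 1.71 FPKM against 0.0786 and 0.250 FPKM, was not called (limma adjusted p = 0.171).

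The regulators and surface proteins of XEN cells stood near the level of the XEN lines. Of the 8 XEN transcription factors none was called, 5 overlapped and 3, among them Hnf4a and Foxq1, were lower in all 4 pairs. Of all genes, 0.686% were called, 49.8% had 1 sign in all 4 pairs and 21.8% were lower in all 4. The counts alone therefore say little, and the level is read from the median. The median difference was -0.29, where null ESCs differed by -5.42. Gata6 had 141 and 212 FPKM in 2.6Null and 3.34Null against 196 and 158 FPKM in XEN5 and XENB1, and Sox17 106 and 183 FPKM against 153 and 206 FPKM. Foxq1, a forkhead factor, had 78.6 and 48.1 FPKM against 144 and 138 FPKM (difference -1.19, limma adjusted p = 0.511), and Hnf4a, a nuclear receptor of visceral endoderm, 3.37 and 3.99 FPKM against 12.5 and 7.54 FPKM (limma adjusted p = 0.320). A p that misses the threshold does not show equal levels. For Gata4 the SE of the difference is 1.12, since the fit takes its spread also from ESCs and cXENp1, where 2.6Null already held 12 and 91.2 FPKM of Gata4 and 3.34Null 2.67 and 4.57 FPKM.

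Among 11 surface and endocytic genes none was called (0.686% of all genes were) and 6 overlapped, where 49.8% of all genes did not. The median difference was -0.03, where null ESCs differed by -6.43. Pdgfra, the PDGF receptor that marks primitive endoderm, had 97.7 and 71.7 FPKM against 114 and 64.6 FPKM, and Fxyd3, a regulator of the sodium pump, 365 and 233 FPKM against 259 and 205 FPKM. Stra6, the retinol transporter, was lower in all 4 pairs with 36.7 and 39.5 FPKM against 210 and 58.4 FPKM, and Lrp2, the endocytic receptor megalin, was higher with 17.9 and 28.9 FPKM against 6.99 and 10.1 FPKM. The 2 XEN lines differed from each other by more than the null lines did for Stra6, as they did for Cubn, the receptor cubilin, with 105 FPKM in XEN5 and 17.8 FPKM in XENB1 against 12.2 and 23.5 FPKM in the null lines.

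**Figure D4:**
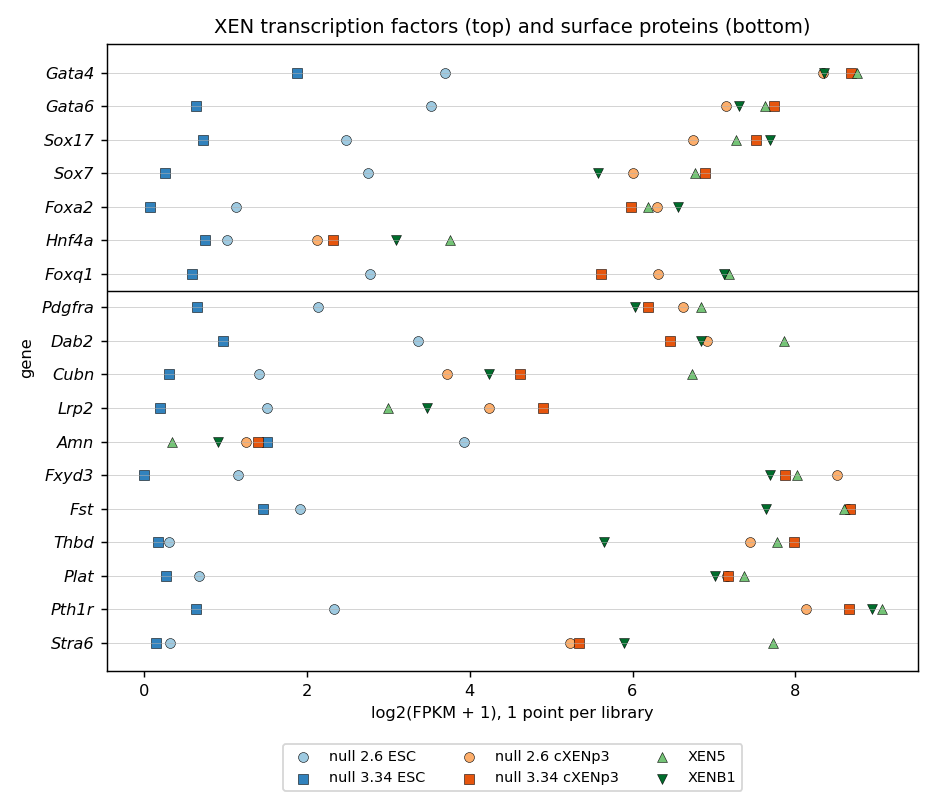
Level in log2(FPKM + 1) of 7 of the XEN transcription factors (above the line) and 11 surface and endocytic genes (below it), 1 point per library. Null cXENp3 (orange) and XEN (green) points lie to the right of the ESC points (blue) for all genes but Amn; the orange points lie wholly left of the green ones in Hnf4a, Foxq1, Pth1r and Stra6, and wholly right in Lrp2, Amn and Fst.

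Matrix genes followed the same pattern where they could be read. Of 15 basement membrane genes, 5 (Lama1, Lamc1, Col4a1, Col4a2 and Sparc) were listed at 0 in all 4 libraries although null cXENp1 held at least 21.2 FPKM of each, and cannot be compared. Of the other 10 none was called (0.686% of all genes were) and 7 overlapped, where 49.8% of all genes did not. Their median difference was 0.27, where null ESCs differed by -3.85. Lamb1, the laminin beta chain, had 1987 and 2933 FPKM against 2386 and 1768 FPKM, and Serpinh1, the collagen chaperone, 2815 and 4092 FPKM against 3473 and 2065 FPKM. Hspg2, the heparan sulphate proteoglycan perlecan, had 252 and 264 FPKM in the null lines and 44.9 and 60.8 FPKM in XEN5 and XENB1 (difference 2.28, SE 0.43, limma adjusted p = 0.0615, not called). The 11 contractile genes and targets of YAP, the transcriptional coactivator of the Hippo pathway, overlapped without exception and had a median difference of 0.29. Ctgf, for one, had 1653 and 878 FPKM against 842 and 2064 FPKM. The XEN lines were themselves apart, with all 11 genes higher in XENB1 than in XEN5. Their summed level was 1631 FPKM in XEN5 and 4200 FPKM in XENB1, against 3617 and 2155 FPKM in 2.6Null and 3.34Null.

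Genes of visceral endoderm, the polarized epithelium of this lineage, were examined next. Of 10 tested, 6 were lower in the null cells in all 4 pairs (21.8% of all genes), 4 overlapped and none was called, with a median difference of -0.87. Null ESCs differed over these genes by a median of -0.32, with a median size of 3.28 against 0.87 at cXENp3. Ttr, the thyroxine carrier, had 0.881 and 0.280 FPKM in 2.6Null and 3.34Null against 72.6 and 7.45 FPKM in XEN5 and XENB1 (limma adjusted p = 0.0914). Rbp4, the retinol carrier of plasma, had 9.89 and 11.6 FPKM against 457 and 33.5 FPKM (limma adjusted p = 0.215). The XEN lines were themselves far apart in both genes. Ihh, the ligand Indian hedgehog, had 4.27 and 5.95 FPKM against 16.2 and 14.7 FPKM.

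No gene of the lists for retinoic acid response (11 tested), trophoblast (5), imprinting (18), cell cycle (12), cholesterol synthesis (12) or glycolysis and hypoxia (13) was called. Of all genes, 0.686% were. Cyp26a1, the retinoic acid hydroxylase, had 597 and 524 FPKM at cXENp1 in 2.6Null and 3.34Null, and 35.8 and 49.8 FPKM at cXENp3, against 69.5 and 69.7 FPKM in the XEN lines. Cholesterol genes were higher in all 4 pairs in 6 of 12, with a median difference of 0.25. Against a share of 28% of all genes higher in all 4 pairs, 8 of 18 imprinted genes were. Of these, Mest had 37.8 and 26.1 FPKM in 2.6Null and 3.34Null against 7.43 and 1.11 FPKM (limma adjusted p = 0.112). The imprinting list does not hold every imprinted gene. Peg13 and Sfmbt2, which it lacks, were called, with differences of 2.24 and -3.20 (limma adjusted p = 0.0208 and 0.00381).

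The genes still apart were then read by the size of their difference. The 53 higher ones had a median difference of 2.59 and the 35 lower ones a median size of 2.26, with every gene at least 1 log2 unit apart in all 4 pairs. Among the higher ones, 21 had at least 10 FPKM in both null ESC libraries (39.6%, against 43.9% of all genes tested) and another 21 were under 1 FPKM in both (39.6%, against 11.7%). Among the lower ones, 22 of 35 were under 1 FPKM in both null ESC libraries (62.9%, against 11.7%). Such genes pass the filter only through the other groups. They also add little spread from ESCs to the fit, which makes a call easier. Their excess over the share of all genes is therefore tied to the fit and is not read as a result. The genes higher at cXENp3 were of both kinds, some held by ESCs and some not.

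Cell adhesion genes and metallothioneins stood among the higher genes that ESCs also express. Cdh1 (XLOC_020124, chromosome 8, 109127268 to 109194146), the epithelial cadherin, had 41.3 and 39.9 FPKM in 2.6Null and 3.34Null against 0.610 and 4.28 FPKM in XEN5 and XENB1 (difference 3.83, SE 0.48, limma adjusted p = 0.0133). Its level had been 159 and 184 FPKM at cXENp1. Cdh1 was the gene called among 9 of the epithelial and mesenchymal list (0.413% of all genes were called higher). Cdh2, Vim and Snai1, which rise in mesenchymal states, had 10.8 and 5.14, 937 and 832, and 80.1 and 161 FPKM in the null lines against 4 and 4.92, 498 and 574, and 116 and 74.9 FPKM in XEN5 and XENB1. Cldn4 (XLOC_016187, chromosome 5, 135420993 to 135422804), a tight junction claudin, had 29.5 and 21.4 FPKM against 0.0400 and 0.963 FPKM (difference 4.20, SE 0.34, limma adjusted p = 0.00267). Both null lines had these junction genes at levels that neither XEN line had.

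Junction genes did not all lie in that direction. In a list of 11 drawn up after values had been seen, 4 were called higher (Cldn3, Cldn4, Rab25 and Jam2) and 1 lower, Cldn6. Of all genes, 0.413% were called higher and 0.273% lower. Since values were known when the list was drawn up, its counts are not read as an excess over these shares. Cldn6, a claudin of embryonic epithelia, had 24.8 and 22.2 FPKM in 2.6Null and 3.34Null against 169 and 124 FPKM in XEN5 and XENB1 (difference -2.57, SE 0.31, limma adjusted p = 0.0127).

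Mt1 and Mt2 encode metallothioneins, which bind zinc and copper, and lie next to each other on chromosome 8. Their promoters are shown because both genes were called together with like differences, and capitals mark matches to the core of the metal response element, the site of the zinc sensor Mtf1. The windows run from 250 bases before to 50 after the RefSeq start, on the plus strand of GRCm38.p6.
Mt1 (chr8:94178839-94179138): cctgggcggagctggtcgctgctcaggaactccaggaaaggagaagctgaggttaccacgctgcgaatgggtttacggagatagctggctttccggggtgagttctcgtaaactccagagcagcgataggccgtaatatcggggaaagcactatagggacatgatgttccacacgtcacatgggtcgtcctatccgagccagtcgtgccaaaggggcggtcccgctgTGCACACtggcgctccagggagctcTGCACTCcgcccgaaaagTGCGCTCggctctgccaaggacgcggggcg
Mt2 (chr8:94172368-94172667): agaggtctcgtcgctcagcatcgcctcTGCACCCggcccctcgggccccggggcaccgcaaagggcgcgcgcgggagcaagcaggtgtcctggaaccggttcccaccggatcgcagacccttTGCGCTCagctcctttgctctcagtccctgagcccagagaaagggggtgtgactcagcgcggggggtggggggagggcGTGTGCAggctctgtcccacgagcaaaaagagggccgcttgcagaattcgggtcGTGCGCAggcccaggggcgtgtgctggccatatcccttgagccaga
The motif was searched as TGCACNC or TGCGCNC on both strands. Mt1 held 3 matches and Mt2 held 4, none of them overlapping. Of 27025 promoters of this length, 25.6% held at least 1 match, 2.00% at least 3 and 0.503% at least 4. A match is a description of the letters only.

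Mt1 (XLOC_020044, mm9 chromosome 8, 96702989 to 96704227) had 707 and 746 FPKM in 2.6Null and 3.34Null against 47.0 and 57.5 FPKM in XEN5 and XENB1 (difference 3.78, SE 0.32, limma adjusted p = 0.0031). Mt2 (XLOC_020043, mm9 chromosome 8, 96696518 to 96697467) had 353 and 662 FPKM against 29.4 and 37.0 FPKM (difference 3.83, SE 0.39, limma adjusted p = 0.00623). In the null ESCs Mt1 had 1140 and 1420 FPKM and Mt2 1959 and 2490 FPKM, so that cXENp3 stood between ESCs and XEN in both lines. Mtf1 had 4.35 and 3.52 FPKM in the null lines against 1.72 and 1.90 FPKM (limma adjusted p = 0.233), and Slc30a1, the zinc exporter, 7.56 and 13.7 FPKM against 6.54 and 10.7 FPKM, which overlapped.

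Other genes named by the rule as higher fell into those held by ESCs and those that were not. Tex19.1, a germline and placental gene, had 12.6 and 11.3 FPKM against 0.215 and 0.239 FPKM, with 18.9 and 20.0 FPKM in ESCs of 2.6Null and 3.34Null. BC002163 had 67.7 and 59.6 FPKM against 0.842 and 1.15 FPKM, with 112 and 103 FPKM in the null ESCs. F2rl1, the protease-activated receptor, had 18.9 and 22.8 FPKM against 0.250 and 2.05 FPKM. Fmr1nb, on chromosome X, had 66.1 and 45.3 FPKM and Trh, the thyrotropin-releasing hormone, 7.15 and 14.7 FPKM, and both were listed at 0 in both XEN lines. Fmr1nb differed also among ESCs, with 46.4 and 42.6 FPKM in the null lines and 2.35 FPKM in wild-type ESCs.

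Genes that were near 0 in the null ESCs and had appeared by cXENp3 included Aqp1 and Fndc1. Aqp1 (XLOC_016539, chromosome 6, 55286293 to 55298549), a water channel, had 65.9 and 38.5 FPKM in 2.6Null and 3.34Null against 1.00 and 2.52 FPKM in XEN5 and XENB1 (difference 4.28, SE 0.41, limma adjusted p = 0.00465), with at most 0.0839 FPKM in null ESCs. Fndc1, a fibronectin domain protein, had 32.1 and 10.9 FPKM against 0.516 and 0.144 FPKM. Svs4 had 6.33 and 3.59 FPKM and Edn2, the peptide endothelin 2, 6.04 and 3.55 FPKM, and both were listed at 0 in the XEN lines. Aqp1 and Fndc1 were thus higher at cXENp3 than in either the null ESCs or the XEN lines, while for Svs4 and Edn2 the exact zeros may be failed estimates.

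**Figure D5:**
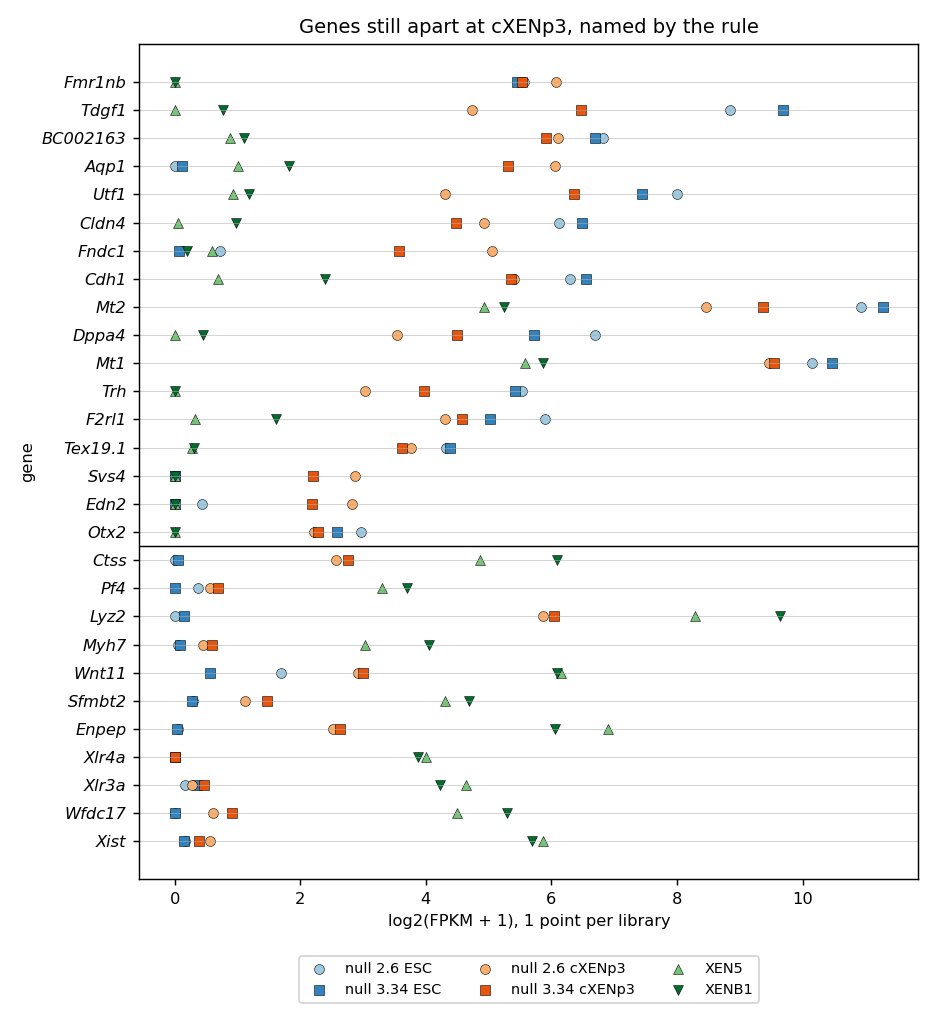
Level in log2(FPKM + 1) of the 28 called genes that the naming rule selects, 1 point per library, with genes higher in null cXENp3 above the line and lower ones below it. In every gene both null cXENp3 points (orange) lie on one side of both XEN points (green).

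The gene with the largest negative difference was Xist (XLOC_022928, chromosome X, 100626856 to 100680296), the RNA that coats and silences the inactive X chromosome. It had 0.469 and 0.304 FPKM in 2.6Null and 3.34Null against 57.2 and 50.5 FPKM in XEN5 and XENB1 (difference -5.30, SE 0.29, limma adjusted p = 0.000233). As ESCs the null lines also had little Xist, with 0.122 and 0.112 FPKM. Y-linked genes were low in all 4 libraries: Ddx3y had 1.79 and 4.91 FPKM in the null lines and 1.28 and 2.82 FPKM in the XEN lines, against 19.4 FPKM in wild-type ESCs. Ddx3y was listed at 0 in 2.6Null at both earlier stages.

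Of the 35 lower genes, 5 (14.3%) lay on chromosome X, which holds 3.37% of the genes tested, and of the 53 higher ones 2 (3.77%). Besides Xist these were Xlr3a, Xlr4a, Bex4 and Arxes1. Xlr3a (XLOC_022824, chromosome X, 70331632 to 70342434) had 0.211 and 0.383 FPKM against 23.9 and 17.8 FPKM. Xlr4a, beside it, was listed at 0 in both null libraries and had 15.0 and 13.6 FPKM in XEN5 and XENB1. Both belong to a family of closely related copies, so their values are uncertain.

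Other lower genes that the rule names were Enpep, Wnt11, Sfmbt2 and Myh7. Enpep (XLOC_013550, chromosome 3, 128972095 to 129035667), a membrane aminopeptidase, had 4.77 and 5.22 FPKM in 2.6Null and 3.34Null against 119 and 65.3 FPKM in XEN5 and XENB1 (difference -3.90, SE 0.37, limma adjusted p = 0.00465). Wnt11, a WNT ligand, had 6.59 and 7.02 FPKM against 70.5 and 67.4 FPKM (difference -3.16, SE 0.39, limma adjusted p = 0.0133). Sfmbt2, an imprinted Polycomb gene of extraembryonic tissue, had 1.18 and 1.78 FPKM against 18.8 and 24.7 FPKM (difference -3.20, SE 0.29, limma adjusted p = 0.00381). Myh7, a cardiac myosin heavy chain, had 0.364 and 0.514 FPKM against 7.22 and 15.5 FPKM. In each of these the 2 null lines were closer to each other than to either XEN line.

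The other lower genes named by the rule, Lyz2, Wfdc17, Ctss and Pf4, are known from macrophages and other blood cells. Lyz2, a lysozyme, had 57.5 and 64.6 FPKM in 2.6Null and 3.34Null against 311 and 802 FPKM in XEN5 and XENB1 (difference -3.01, SE 0.41, limma adjusted p = 0.0209), and at most 0.114 FPKM in the null ESCs. Wfdc17 had 0.522 and 0.881 FPKM against 21.4 and 38.2 FPKM (difference -4.13, SE 0.33, limma adjusted p = 0.00248). Ctss, a lysosomal protease of antigen-presenting cells, had 4.90 and 5.77 FPKM against 28.1 and 67.2 FPKM, and Pf4, platelet factor 4, 0.475 and 0.610 FPKM against 8.85 and 12 FPKM.

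Markers of macrophages were examined beside these genes. In a list of 14 such markers, drawn up after values had been seen and without the genes named above, 12 were tested; 10 of these were lower in the null cells in all 4 pairs, 2 overlapped and none was called, with a median difference of -1.49. Of all genes, 21.8% were lower in all 4 pairs, but the list was drawn up with values known, so its count is not read as an excess. Their summed level was 52.8 and 49.998 FPKM in 2.6Null and 3.34Null against 98.6 and 248 FPKM in XEN5 and XENB1. Null ESCs had 78.2 and 56.2 FPKM, mostly from Laptm5 and Cd68, which these cells also express. None of the 14 was at 0 in a XEN line, and Aif1 was listed at 0 in 3.34Null. Among the defining markers, Csf1r had 3.36 and 0.725 FPKM against 6.07 and 7.35 FPKM, Ptprc 0.193 and 0.234 FPKM against 0.701 and 1.43 FPKM, and Tyrobp 4.01 and 5.09 FPKM against 17.3 and 55.7 FPKM. The list held none of the 35 genes called lower. Ms4a7, Ms4a6d, Clec4n, Ccl6, Gpnmb, Cd36 and Il1rn, also known from macrophages though not all from them alone, were among those 35. The part of such cells in the called differences was not tested.

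Markers of feeder fibroblasts were examined likewise. Of 12 tested, 9 were lower in the null cells in all 4 pairs (21.8% of all genes), 1 was higher, 2 overlapped and none was called, with a median difference of -0.91. Their summed level over 13 genes was 456 and 347 FPKM in 2.6Null and 3.34Null against 625 and 743 FPKM in XEN5 and XENB1, where the null ESCs had 2.46 and 4.43 FPKM. Col1a1, the fibrillar collagen chain, had 168 and 133 FPKM against 278 and 326 FPKM. No gene of the list was at 0 in any of the 4 libraries, and the part of fibroblasts in the called differences was not tested.

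Of the 28 called genes that the rule names, which takes members of the 17 lists but not of the junction, metallothionein and macrophage lists drawn up later, all kept their sign, and 13 stayed called in every fit without 1 of the 4 libraries that tested them: Tex19.1, BC002163, Sfmbt2, Cldn4, Mt1, Fmr1nb, Xlr4a, Xlr3a, Wfdc17, Enpep, Pf4, Aqp1 and Xist. The other 15 lost the call in at least 1 such fit. Without 2.6Null these were Lyz2, F2rl1, Otx2, Wnt11, Cdh1, Myh7 and Ctss. Without 3.34Null they were Lyz2, F2rl1, Otx2, Dppa4, Trh, Wnt11, Cdh1, Myh7 and Ctss. Without XENB1 they were Lyz2, Otx2, Fndc1, Trh, Wnt11, Utf1, Svs4, Ctss and Edn2, and without XEN5 F2rl1, Otx2, Dppa4, Fndc1, Trh, Wnt11, Utf1, Mt2, Tdgf1, Svs4 and Edn2, with limma adjusted p up to 0.14. Xlr4a, Wfdc17, Pf4, Xist, Myh7, Svs4 and Edn2 passed the filter on low values in only 2 of the 4 fits. In the fit of only the 4 libraries compared, 10 of the 28 lost the call. These were Lyz2, F2rl1, Otx2, Fndc1, Utf1, Cdh1, Myh7, Svs4, Ctss and Edn2.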

How the data were processed

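PolyA RNA was sequenced as paired reads of 150 bp, per the labels' protocols. The authors deposited 1 table of 23174 gene rows by 14 libraries. The labels do not name its unit; the values were taken as FPKM as deposited by the authors, since they are not whole, sum differently by library and carry Cufflinks identifiers. STAR 2.5.3, Cufflinks 2.1.1 and mm9 are named, with no roles, in the submitters' processing notes, and the annotation is not given in the sources used here. Each line is 1 library per stage, and nothing says that stages came from separate cultures.

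Values were transformed to log2(FPKM + 1). Genes with at least 1 FPKM in at least 2 of the 8 libraries in 4 groups (null ESC, null cXENp1, null cXENp3 and XEN) were kept, which left 12830. limma 3.58.1 in R 4.3.3 (lmFit, eBayes with trend, 4 residual degrees of freedom) gave 3 contrasts against XEN, with Benjamini-Hochberg adjustment over all genes and a threshold of 0.05. On simulated data for the cXENp3 contrast over 12830 genes, 183 of 200 genes changed by 2 log2 units were recovered (91.5%), with 11 false calls. Changes were placed only in genes whose mean over null cXENp3 and XEN was above 3 log2 units. Noise was independent and normal with the spread of the fit itself, all other genes were equal, and any value above 0 was kept. The recovered share therefore checks the code and does not give the power in these data.

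The genes named are Zfp281, Pou5f1 and Gata4, the 10 largest called differences in each direction among genes above 0 in all 4 libraries, up to 4 per direction listed at 0 in both libraries of 1 side, and called members of the 17 gene lists. Uncalled list members are named by their values. The members, these lists and the tests were chosen with earlier results of these data known, and 3 more lists (macrophage, metallothionein and zinc, epithelial junction) after values had been seen. Alternatives covered the pseudocount, the filter, quantile normalization, the trend, a minimum change, genes listed at 0, the libraries in the fit, leaving out each library and, added later, line as a random effect. An exact 0 can be a failed estimate, so a gene listed at 0 in a whole group was given no fold.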

Additional observations from a re-analysis of the deposited data

How the results depend on the processing

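The count of genes called between null cXENp3 and XEN, 88, was 148 with a pseudocount of 0.1 (117 higher and 31 lower), 37 with a mean of at least 5 FPKM, 551 with 14 libraries in 7 groups and 44 with only the 4 libraries compared. It ranged from 33 to 44 when 1 library was left out. It lay between 70 and 108 under the other alternatives, with 40 higher and 45 lower among 85 when any value above 0 was kept. Without the null ESCs, an alternative chosen after seeing the data, it was 88, of which 67 were shared. For null ESCs against XEN, 2653 to 3583 genes were called with 1 library left out, against 4541. For null cXENp1 against XEN the range was 578 (without 3.34Null) to 1510, and the filter on the mean gave 1350, against 2593. The mean share of XEN-high genes within 1 log2 unit, 64.8%, was 68.5% with XEN5 choosing the genes and 71.7% with a difference of at least 2; for ESC-high genes the share, 45.3%, was 57.1% and 55.3%. The cause of these shifts was not tested. None of the 28 called genes that the rule names changed direction under these alternatives; the other called genes named were not checked. Quantile normalization changed the sign of 2 of 8 XEN transcription factors and 2 of 11 surface genes, all uncalled, and of no pluripotency gene. No paired analysis was possible because the XEN lines share no line or replicate source with the null lines. The fit treats the libraries of 1 null line as independent; with line as a random effect, chosen after seeing the data, the estimated correlation was 0.07, and 95 genes were called at cXENp3, among them all 88. The table holds no read counts, so what depth limits cannot be stated.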

Other observations

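Several developmental transcription factors stood among the genes called higher in null cXENp3. They were chosen here after their values had been seen. Nkx2-3, a homeobox factor of gut mesoderm and spleen, had 11.5 and 10.9 FPKM in 2.6Null and 3.34Null against 0.0513 and 0.297 FPKM in XEN5 and XENB1 (difference 3.39, SE 0.32, limma adjusted p = 0.00439). Foxl2, a forkhead factor of ovary and eyelid, had 7.28 and 3.49 FPKM against 0.326 and 0.344 FPKM (limma adjusted p = 0.032). Nkx2-5, a cardiac homeobox factor, had 3.27 and 2.49 FPKM and was listed at 0 in both XEN lines. All 3 were under 1 FPKM in both null ESC libraries, and the exact zeros of Nkx2-5 may be failed estimates.

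In the other direction, Foxa3, a forkhead factor of endoderm, was listed at 0 in 2.6Null and had 0.156 FPKM in 3.34Null, against 3.10 and 5.10 FPKM in XEN5 and XENB1 (difference -2.22, SE 0.31, limma adjusted p = 0.0237). Its relative Foxa2 overlapped between the groups, with 77.7 and 62.4 FPKM against 71.9 and 93.3 FPKM. Cpxm1, a secreted protein of the carboxypeptidase family, had 8 and 7.32 FPKM against 59.9 and 34.5 FPKM (limma adjusted p = 0.0133).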
